A study of Homo sapiens with 16 samples.

Results

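The neurotrophin receptors and ligands described here are 6 genes, taken by name from the 69222 gene rows of the deposited count table. They are the receptors NTRK2 (TrkB), NTRK3 (TrkC) and NGFR (the p75 neurotrophin receptor), the sorting receptor SORT1 (sortilin), and the ligands BDNF and NTF3. The cells were SH-SY5Y, a human neuroblastoma line, and polyadenylated RNA was sequenced from 8 groups of 2 libraries, 16 in all. One group was untreated on culture plates and a second was differentiated on culture plates. The other 6 were differentiated on a conductive film, without or with electrical stimulation: the film was P(rGO), made with reduced graphene oxide, PEDOT:PSS, a blend of conducting polymers, or ITO, indium tin oxide. Differentiation lowered serum to 5%, 2.5% and 1% on days 2, 3 and 5, gave retinoic acid at 10 µM from day 3 to day 6, and then BDNF protein at 50 ng/mL for 4 days. All 7 differentiated groups therefore received BDNF, the ligand of TrkB, and RNA counts do not register that added protein. Stimulation was a square wave of 0.1 V at 1 Hz for 8 h a day over the last 4 days. Per the labels' protocols the films were coated with poly-L-lysine and laminin. No coat is named for the plates, so film and coat cannot be told apart. All groups are one cell line. No label says whether a group's replicates were grown separately, so a p-value here reflects only how these libraries spread, and that spread may be technical.

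Neurotrophins are secreted as precursors, cleaved to a mature form, and bound by Trk receptor tyrosine kinases, which signal survival and neurite growth. TrkB binds BDNF, and TrkC binds neurotrophin 3, the product of NTF3. The p75 receptor binds every neurotrophin and can pair with sortilin to bind the uncleaved precursors, a pairing known for signalling cell death. SH-SY5Y cells are known to gain TrkB and so a response to BDNF when treated with retinoic acid.

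On GRCh38 (GENCODE 29) NTRK2 lies on the plus strand of chromosome 9 from 84668551 to 85027070. NTRK3 lies on the minus strand of chromosome 15 from 87859751 to 88256768, NGFR on the plus strand of chromosome 17 from 49495293 to 49515017, and SORT1 on the minus strand of chromosome 1 from 109309568 to 109397951. BDNF lies on the minus strand of chromosome 11 from 27654893 to 27722058, where the antisense gene BDNF-AS overlaps it, and NTF3 on the plus strand of chromosome 12 from 5432112 to 5521536. NGFR overlaps 3 other annotated genes, and NTRK3 overlaps 2, among them the antisense gene NTRK3-AS1. Without a stated strand setting, reads of NTRK3 and NTRK3-AS1 cannot be told apart. Counts are of reads per gene, so isoforms such as TrkB without its kinase domain were not resolved.

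Promoter sequence is shown for NTRK2, the member with the widest range of levels, and for BDNF, its ligand, which is known as an activity-regulated gene. Both stretches lie before a RefSeq start (GRCh38.p14), run 5′ to 3′ along the gene's strand and hold no annotated exon of GENCODE 29. Each lies inside the GENCODE 29 span of its gene given above, downstream of where that span begins. That of NTRK2 is chr9:84669056-84669301 and that of BDNF is chr11:27701634-27701871. Capitals mark the letters TGACG, the core of the cyclic AMP response element, searched on both strands.

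NTRK2: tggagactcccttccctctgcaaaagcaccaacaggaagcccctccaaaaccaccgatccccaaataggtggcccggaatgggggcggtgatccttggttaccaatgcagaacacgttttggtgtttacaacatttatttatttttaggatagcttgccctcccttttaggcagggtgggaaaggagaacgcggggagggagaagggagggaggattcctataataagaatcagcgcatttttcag

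BDNF: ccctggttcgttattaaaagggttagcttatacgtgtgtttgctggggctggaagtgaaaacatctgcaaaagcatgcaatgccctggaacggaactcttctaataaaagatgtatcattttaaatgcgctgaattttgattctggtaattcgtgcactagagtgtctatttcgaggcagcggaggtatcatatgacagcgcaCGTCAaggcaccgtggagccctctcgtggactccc

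The stretch shown for each gene was the window with the most matches to the letters searched. Windows close downstream of another RefSeq start of the gene were set aside first, among them the NTRK2 window with TGACG. The BDNF stretch holds 1 match, on the opposite strand, which begins 47 bases before the start, and the NTRK2 stretch holds none. That contrast follows from the choice of windows and is not a difference between the genes. Of 35116 RefSeq windows of 250 bases before a start, 21.2% hold TGACG on either strand. The letters AGGTCA, a half-site of retinoic acid receptors, were searched in the same way and overlap no TGACG in the stretches shown. AGGTCA is in 12.1% of the windows, in none of the 4 NTRK2 or 5 BDNF windows, and in 1 of 2 SORT1 windows, while TGACG is in 1 of the 4 NTRK2 windows and in 1 of the 5 BDNF windows, the one shown. A match describes letters and is not evidence of binding.

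Library depth ran from 15600410 to 20851000 gene-assigned reads, and 18081 genes had enough reads to be tested. Of the 6 members, 5 were tested, and NTF3 was too low. BDNF passed the filter in 9 libraries where 2 were needed. edgeR's biological coefficient of variation between replicates was 36.2% in untreated cells, 18.1% on differentiated plates and 6.88% to 18.2% in the film groups. Markers fixed for noradrenergic neuroblasts, the type of this line, summed to 5476 to 5999 CPM (read count relative to the scaled size of its library) in untreated libraries, 4051 to 4138 on differentiated plates and 2896 to 3590 on films, with all 9 present in every group. Of the 8 markers of Schwann cells and glia, SOX10 and FOXD3 had no count in any library and the list summed to between 3.90 and 13.01 CPM.

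NTRK2 was the member that differentiation raised most. Its level in untreated cells was 17.3 CPM in replicate 1 and 6.23 in replicate 2, and on differentiated plates it was 392 and 571 CPM. Both differentiated plate libraries lay far above both untreated ones, at a mean of 481 ± 126 against 11.8 ± 7.85 CPM (SD, n = 2). The log2 fold change was 5.35 (SE 0.44, adjusted p = 1.42e-05, edgeR's quasi-likelihood test with Benjamini-Hochberg adjustment over all 18081 genes). In bulk RNA, more cells with the transcript and more RNA per cell cannot be told apart. NTRK2 ranked 35 of 18081 tested genes by the span of its group means, 5.49 on the log2 CPM scale.

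On the films NTRK2 was likewise far above untreated cells, and no film contrast with differentiated plates was called, with log2 fold changes from -0.49 to -0.25 and adjusted p from 0.638 to 0.826. On P(rGO) NTRK2 stood at 345 and 464 CPM in replicates 1 and 2 without stimulation, and at 288 and 496 with it. On PEDOT:PSS the values were 327 and 463 without and 350 and 448 with stimulation. On ITO they were 359 and 373 without and 284 and 399 with stimulation. All 12 film libraries lay above both untreated libraries. Of these 12, 7 lay below both differentiated plate libraries, both unstimulated ITO libraries among them, and none lay above both. The mean of the unstimulated films exceeded untreated cells by 5.04 on the log2 scale (SE 0.42, edgeR adjusted p = 1.82e-06). In the order of group means, from differentiated plates down through unstimulated P(rGO), stimulated and unstimulated PEDOT:PSS, stimulated P(rGO), unstimulated ITO and stimulated ITO, the libraries of every pair of neighbours overlapped. Only the step to untreated cells, last in the order, was free of overlap.

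**Figure D1:**
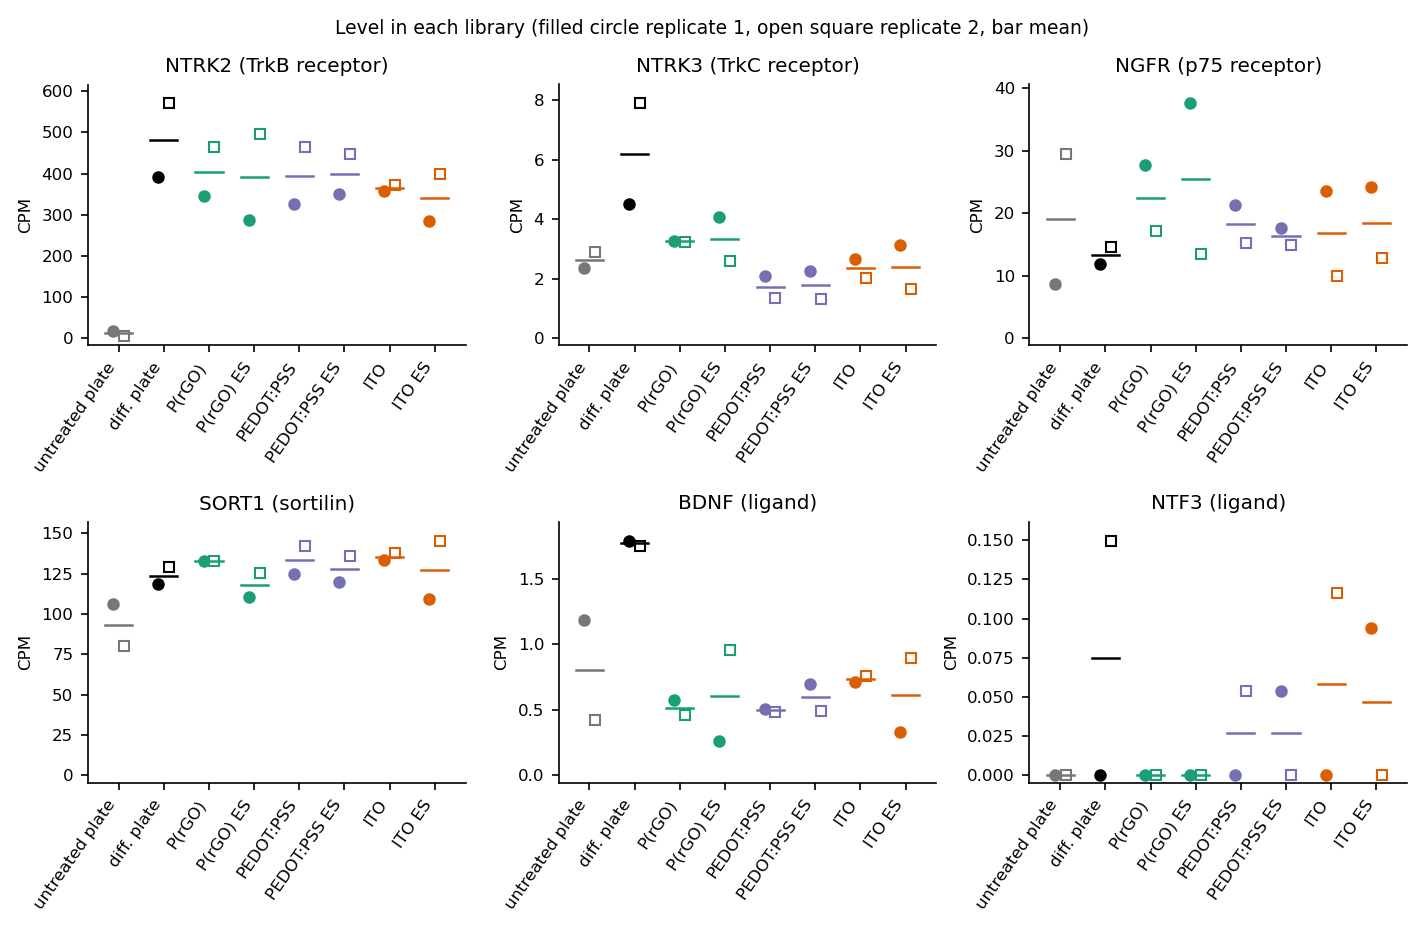
CPM of the 6 genes in each of the 16 libraries, by group on the horizontal axis. Filled circles are replicate 1, open squares replicate 2 and bars the mean of the 2. NTRK2 is at most 17.3 CPM in untreated cells and at least 284 in every differentiated library, while NTRK3 and BDNF are highest on differentiated plates.

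NTRK3, the receptor for neurotrophin 3, was weakly expressed. It was lower on films than on differentiated plates, a difference called in 1 of 6 film contrasts. It stood at 2.37 and 2.90 CPM in untreated cells and at 4.51 and 7.89 CPM on differentiated plates, with a log2 fold change of 1.23 (SE 0.40, edgeR adjusted p = 0.0329). The 4 libraries did not overlap, but the differentiated replicates differed more from each other than the lower of them did from untreated cells. Leaving out untreated replicate 1 or 2 ended the call (adjusted p = 0.0800 and 0.0538), as did leaving out differentiated plate replicate 2 (0.296). Thus 2 of the 5 tested members, NTRK2 and NTRK3, rose with differentiation on plates, where 29.6% of all tested genes were called and 13.8% were higher.

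On the films NTRK3 did not reach the plate level. Its values were 3.26 and 3.24 CPM on P(rGO) without stimulation and 4.08 and 2.60 with it, 2.11 and 1.35 on PEDOT:PSS without and 2.26 and 1.31 with it, and 2.66 and 2.04 on ITO without and 3.14 and 1.64 with it. All 12 film libraries lay below both differentiated plate libraries, and 6 of them lay below both untreated libraries. Against differentiated plates the log2 fold change was -1.85 on unstimulated PEDOT:PSS (SE 0.42, edgeR adjusted p = 0.0424), -1.40 on unstimulated ITO (adjusted p = 0.0708) and -0.93 on unstimulated P(rGO) (adjusted p = 0.204). With stimulation it was -1.79 on PEDOT:PSS (adjusted p = 0.0514), -1.37 on ITO (0.106) and -0.89 on P(rGO) (0.295).

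Only the PEDOT:PSS contrast without stimulation was therefore called for NTRK3, and that call was lost when any of its 4 libraries was left out, with adjusted p from 0.0940 to 0.380. DESeq2 also called NTRK3 on unstimulated ITO (adjusted p = 0.0280), on stimulated PEDOT:PSS (0.00415) and on stimulated ITO (0.0415). The 6 film contrasts share the 2 plate libraries and are not independent of each other. The order on the films, P(rGO) above ITO above PEDOT:PSS, did not pass edgeR's test of the difference among unstimulated films (adjusted p = 1.0) or among stimulated films (adjusted p = 1.0). Against untreated cells the mean of the unstimulated films differed by -0.16 (SE 0.34, edgeR adjusted p = 0.730).

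The balance of TrkB to p75 was taken within a library, as the ratio of NTRK2 to NGFR in reads per kilobase of annotated exon, which no scaling between libraries can move. It was 0.406 and 0.0431 in untreated replicates 1 and 2, and 1.56 to 7.97, with a median of 5.82, in the 14 differentiated libraries. NGFR thus exceeded NTRK2 per kilobase in both untreated libraries, and NTRK2 exceeded NGFR in every differentiated one, with no overlap. Each length is the union of exons over all isoforms, 20363 bases for NTRK2, so the ratio would shift with the isoforms present. For SORT1 to NGFR the same ratio was 5.53 and 1.23 in untreated libraries and 1.33 to 6.27 in differentiated ones, and the ranges overlapped.

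NGFR, the p75 receptor, was called in no comparison, and the replicates of some groups lay far apart. Its values were 8.70 and 29.5 CPM in untreated cells and 11.9 and 14.6 CPM on differentiated plates, and the 12 film libraries ran from 9.96 to 37.6 CPM with a median of 17.4. Every pair of neighbouring groups overlapped except the last step, from stimulated PEDOT:PSS to differentiated plates. The log2 fold change with differentiation on plates was -0.53 (SE 0.56, edgeR adjusted p = 0.503), and it was 0.61 without untreated replicate 2. Against plates the 6 film contrasts ran from 0.30 to 0.95 on the log2 scale with adjusted p from 0.460 to 0.888, and 9 of 12 film libraries lay above both plate libraries. Schwann cells are also known for p75, and their defining marker SOX10 was at 0 in all 16 libraries.

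SORT1, which sorts neurotrophins inside the cell and pairs with p75, was well expressed in every group. It stood at 106 and 80.1 CPM in untreated cells and 119 and 129 CPM on differentiated plates, and the 12 film libraries ran from 109 to 146 CPM. Both plate libraries and all 12 film libraries lay above both untreated ones. The difference on plates was 0.41 on the log2 scale and did not pass (SE 0.16, edgeR adjusted p = 0.0697), though it did without untreated replicate 1 (0.63, adjusted p = 0.00771). That of the unstimulated films against untreated cells was 0.52 (SE 0.14, adjusted p = 0.00663), a call that ended without untreated replicate 2 (0.0817). Against plates SORT1 differed by -0.07 to 0.13 over the 6 film contrasts, with adjusted p of at least 0.756. In the comparison of unstimulated films with untreated cells 2 of 5 tested members, NTRK2 and SORT1, rose, where 44.8% of all genes were called, 20.4% higher and 24.3% lower.

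BDNF transcript was low in every library, with 5 to 35 reads. It stood at 1.18 and 0.424 CPM in untreated cells and 1.79 and 1.75 CPM on differentiated plates. Unstimulated P(rGO), PEDOT:PSS and ITO libraries held 0.573 and 0.463, 0.511 and 0.487, and 0.711 and 0.757 CPM. With stimulation the same films held 0.261 and 0.957, 0.701 and 0.490, and 0.328 and 0.893 CPM. All 12 film libraries thus lay below both differentiated plate libraries, and among the 7 groups below plates every pair of neighbours in the order overlapped.

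No contrast of BDNF was called by edgeR in the main fit of all 16 libraries on the filtered genes. With differentiation on plates the log2 fold change was 1.13 (SE 0.57, edgeR adjusted p = 0.148), and without untreated replicate 1 it was 2.04 and called (0.0328). Against plates it ran from -1.81 on unstimulated PEDOT:PSS to -1.26 on unstimulated ITO, with edgeR adjusted p from 0.113 to 0.280. It was called on unstimulated P(rGO) when the untreated libraries were left out of the fit (adjusted p = 0.0463) and when only the groups compared were fitted (0.0410). BDNF-AS, on the opposite strand, held 12 to 35 reads per library, and without a stated strand setting, reads of the pair cannot be told apart.

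NTF3, the ligand of TrkC, had 9 reads in all, in 5 of 16 libraries and never more than 3 in 1. A count of 3 corresponds to 0.141 to 0.191 CPM per library, and the highest NTF3 value was 0.150 CPM, in differentiated plate replicate 2. No difference between groups was detectable at this depth. NTF4, a further ligand of TrkB, was low too, with 22 reads over all 16 libraries.

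Of the 5 tested members 0 were called between unstimulated P(rGO) and plates, where 4.63% of all tested genes were called, 2.99% higher and 1.64% lower. On unstimulated PEDOT:PSS 1 was called, NTRK3, where 1.48% of genes were, 1.02% higher and 0.454% lower. On unstimulated ITO 0 were called, where 4.23% of genes were, 2.5% higher and 1.73% lower. With stimulation 0 were called on P(rGO), where 1.68% of genes were, 0.835% higher and 0.841% lower. On stimulated PEDOT:PSS 0 were called, where 1.25% of genes were, 0.791% higher and 0.459% lower, and on stimulated ITO 0, where 2.18% were, 1.44% higher and 0.741% lower. In each of these 6 comparisons edgeR gave an unadjusted p under 0.05 for 2 of the 5, NTRK3 and BDNF, and both were lower on the film. Of all 18081 tested genes, 2336 to 3531 had an unadjusted p under 0.05 there. The 6 comparisons share the same 2 plate libraries. DESeq2 called 0 members on P(rGO), without or with stimulation, and 1, NTRK3, in each of the other 4 comparisons.

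No member passed the test for stimulation on any film. The log2 fold changes of the 5 tested members ran from -0.17 to 0.23 with P(rGO), from -0.17 to 0.25 with PEDOT:PSS, and from -0.26 to 0.14 with ITO. None had an unadjusted p under 0.05, the lowest adjusted p on a single film was 0.969, and DESeq2 called none, where edgeR called 0% of all genes on each film. Over all genes an unadjusted p under 0.05 was held by 986 with P(rGO), 126 with PEDOT:PSS and 293 with ITO, and DESeq2 called 14, 0 and 0. For the mean over the 3 films NTRK2 differed by -0.04 (95% interval -0.49 to 0.40) and NTRK3 by 0.04 (-0.48 to 0.56). SORT1 differed by -0.11 (-0.31 to 0.09), NGFR by 0.05 (-0.64 to 0.74) and BDNF by 0.07 (-0.73 to 0.87). These intervals bound the size of an effect and do not show that there was none, most closely for SORT1 and least for BDNF. In edgeR's test of whether the effect of stimulation differed between films, every member had an adjusted p of 1.0.

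**Figure D2:**
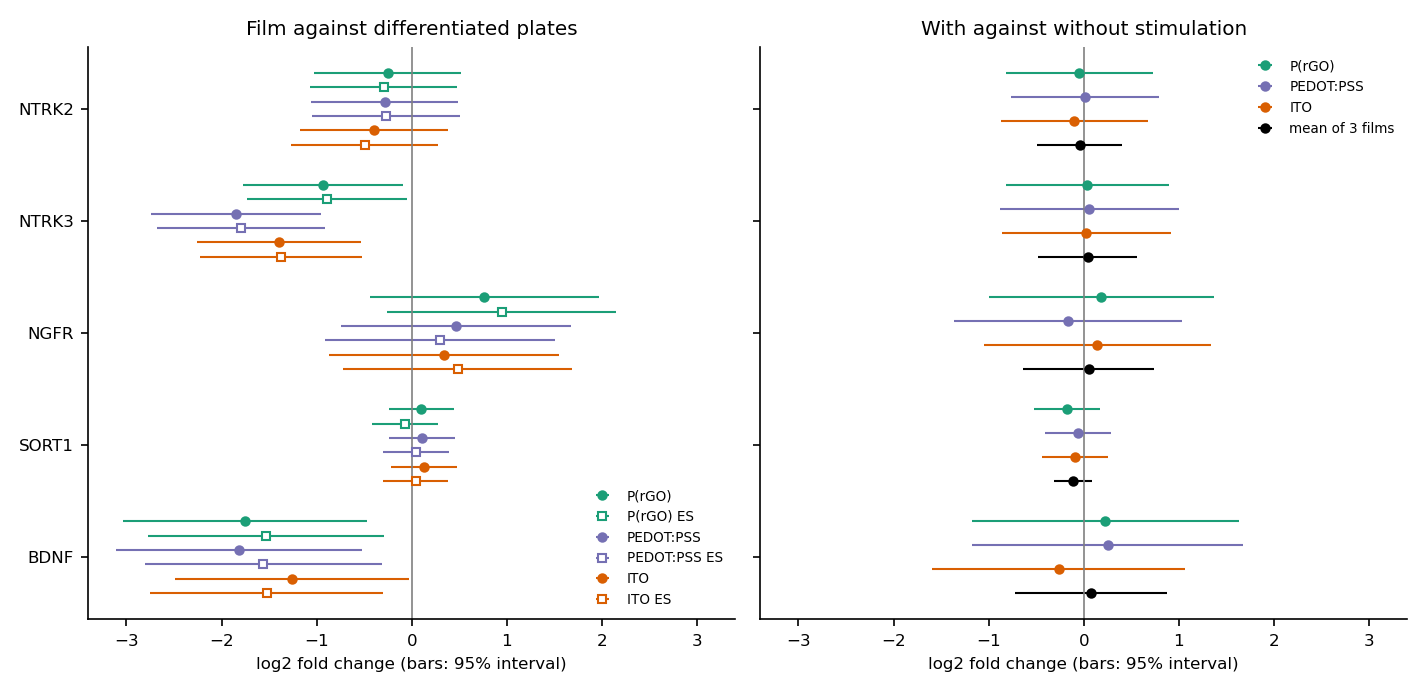
Log2 fold changes of the 5 tested members with 95% intervals, for film against differentiated plates (left, open squares with stimulation) and for stimulation on each film and on average (right). NTRK3 and BDNF lie below 0 in all 6 film contrasts, between -0.89 and -1.85 and between -1.26 and -1.81, and every interval on the right includes 0.

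The replicates of a group differed in a like direction across groups for some members. In all 7 differentiated groups NTRK2 was higher in replicate 2 than in replicate 1, and so was SORT1, by a median over the 6 film groups of 0.46 and 0.18 on the log2 scale. NGFR and NTRK3 were lower in replicate 2 in all 6 film groups, by medians of -0.80 and -0.61, and higher in it on both plates. Of all tested genes 4.25% were higher in replicate 2 in all 7 differentiated groups, and 7.23% were lower in it in all 6 film groups. In untreated cells NTRK2 and SORT1 went the other way, at -1.46 and -0.41 for replicate 2 against 1. The labels give a prefix, NB33 or NB34, that goes with the replicate number, whose meaning no label explains. Its part in these differences was not tested.

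**Figure D3:**
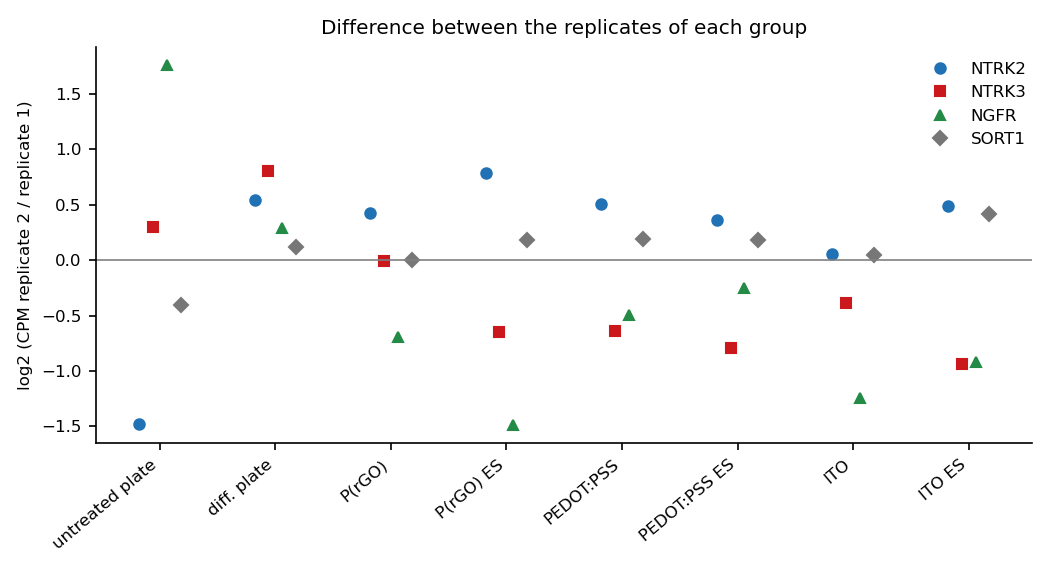
Log2 ratio of CPM in replicate 2 to replicate 1 for NTRK2, NTRK3, NGFR and SORT1 in each of the 8 groups. NTRK2 and SORT1 lie above 0 in all 7 differentiated groups and NGFR and NTRK3 at or below 0 in the 6 film groups.

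By the rule for likeness, the genes whose 8 centred group means of log2 CPM lay nearest to those of NTRK2 were ANO3, FGF1 and NOS1, with root mean square differences of 0.21, 0.23 and 0.23. ANO3 encodes a membrane protein of the anoctamin family, FGF1 a fibroblast growth factor and NOS1 the neuronal nitric oxide synthase. ANO3 spanned 5.69, FGF1 4.92 and NOS1 6.14 on the log2 CPM scale, and 10296 genes were ranked. No other tested member spanned the 2 log2 units that the rule required, with NTRK3 at 1.76, BDNF at 1.63, NGFR at 0.77 and SORT1 at 0.56.

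Of 9 other tested ligands and receptors of the pathway, 3 rose and none fell on plates, a share called near the 29.6% of all tested genes there, with a median log2 fold change of 0.56 against -0.01 over all tested genes. They were TNFRSF19, an orphan receptor related to p75, and SORCS1 and SORCS2, relatives of sortilin, named after their values were seen. TNFRSF19 rose from a mean of 6.45 ± 5.86 CPM to 74.7 ± 26.1 (SD, n = 2), a log2 fold change of 3.53 (edgeR adjusted p = 0.000245), and SORCS1 from 190 ± 13.7 to 337 ± 14.7 CPM (0.83, adjusted p = 0.0044). SORCS2 rose by 1.32 (adjusted p = 0.0476), a call that ended without untreated replicate 1 (0.188) or either differentiated plate library (0.0562 and 0.248). Of these 9 genes 1 was called against plates on a film, SORCS3, a further relative of sortilin, lower on unstimulated ITO (edgeR adjusted p = 0.0250). It held 0.840 ± 0.270 CPM on plates and at most 4 reads in any film library, and the call ended without plate replicate 1 (0.167) or either ITO library (0.190 and 0.112).

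Genes that act below the receptors were called on plates about as often as all tested genes, of which 13.8% rose and 15.8% fell. Of 27 tested Trk adaptors and kinases 6 rose and 3 fell on plates, and 0 were called in any of the 6 film contrasts, where 0 to 3 had an unadjusted p under 0.05. Of 11 tested partners of p75 and sortilin 2 rose and 2 fell, among them RIPK2, a kinase that binds p75 (log2 fold change -1.14, SE 0.22, edgeR adjusted p = 0.00219), and 0 were called between films and plates, where 1 to 2 had an unadjusted p under 0.05. Of all tested genes 1.25% to 4.63% were called in these film contrasts. PCSK6, a convertase that cleaves precursors, fell on plates from 5.76 ± 2.32 to 1.03 ± 0.539 CPM (log2 fold change -2.48, edgeR adjusted p = 0.00152). When only the 4 plate libraries were fitted, RIPK2, PCSK6, SORCS1 and SORCS2 were not called (adjusted p = 0.133, 0.0798, 0.132 and 0.239).

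Among retinoic acid targets, of 10 tested, 6 rose and 2 fell on plates, with a median log2 fold change of 1.88, where 13.8% of all tested genes rose and 15.8% fell. DHRS3, a retinal reductase, rose by 4.64 (SE 0.44, edgeR adjusted p = 2.75e-05) and RARB, a retinoic acid receptor, by 1.99 (SE 0.21, adjusted p = 5.42e-05). CRABP1, a carrier of retinoic acid, fell by 1.80 on the log2 scale (SE 0.32, adjusted p = 0.00139). Proliferation markers were lower in differentiated libraries, and their sum lay between 1486 and 1948 CPM in untreated libraries, 384 and 691 on differentiated plates and 175 and 652 on films, and 5 of 6 fell on plates. Markers of mesenchymal cells or fibroblasts summed to between 813 and 1101 CPM in untreated libraries, 244 and 276 on differentiated plates and 207 and 388 on films, with PRRX1 at 0 in all groups but unstimulated P(rGO). Of 10 tested mesenchymal markers 8 fell on plates, with a median log2 fold change of -3.49. The part of both lists in the NTRK2 and NTRK3 differences was not tested.

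Genes known to be induced by neurotrophins differed between films and plates, where NTRK2 was not called. This list was chosen with earlier results of these data known, so its counts are descriptive and not independent support. A link of these genes to TrkB or to the added BDNF was not tested. Of 17 tested, 2 rose and 3 fell with differentiation on plates, a share near the 29.6% of all tested genes called there. Against plates 10 rose on unstimulated P(rGO), 6 on unstimulated PEDOT:PSS, and 10 rose and 1 fell on unstimulated ITO. With stimulation 8 rose and 1 fell on P(rGO), 6 rose on PEDOT:PSS, and 8 rose and 1 fell on ITO. Of all tested genes 1.25% to 4.63% were called in these 6 comparisons. SPRY2, an inhibitor of receptor tyrosine kinase signalling, fell with differentiation, from a mean of 58.8 ± 17.5 CPM to 23.7 ± 0.148 (SD, n = 2; log2 fold change -1.31, SE 0.22, edgeR adjusted p = 0.000957), though not with the 4 plate libraries alone (adjusted p = 0.0676). SPRY2 was at 87.5 ± 4.70 CPM on unstimulated P(rGO), 74.8 ± 5.00 on unstimulated PEDOT:PSS and 62.1 ± 7.57 on unstimulated ITO, each called against plates (adjusted p = 0.000481, 0.00259 and 0.00283). On PEDOT:PSS the SPRY2 call ended without plate replicate 1 (adjusted p = 0.0629). EGR3, an immediate early transcription factor, was at 0.227 ± 0.244 CPM on plates and 6.08 ± 0.901 on unstimulated P(rGO) (log2 fold change 4.67, SE 0.53, edgeR adjusted p = 0.000454). DUSP5, a phosphatase of ERK kinases, was at 4.39 ± 1.06 CPM on plates and 33.3 ± 5.97 on unstimulated P(rGO) (2.92, SE 0.34, adjusted p = 0.000481).

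The counts fell when most single libraries were left out. Without differentiated plate replicate 1 the neurotrophin-induced genes called were 3 for unstimulated P(rGO), 4 for unstimulated ITO and 0 for unstimulated PEDOT:PSS, and 2 for stimulated ITO and 0 for both other stimulated films. Without plate replicate 2 they were 10 for unstimulated P(rGO), 9 for ITO and 6 for PEDOT:PSS, and 9, 6 and 7 for the stimulated films in that order. Leaving out replicate 1 or 2 of the film itself gave 5 and 5 for unstimulated P(rGO), 6 and 4 for unstimulated ITO and 3 and 2 for unstimulated PEDOT:PSS. With stimulation it gave 2 and 8 for P(rGO), 3 and 3 for ITO and 1 and 2 for PEDOT:PSS. For stimulation edgeR called 0 of the 17 on any film, and 3 had an unadjusted p under 0.05 on P(rGO) and 0 on the other films, where DESeq2 called 1 and 0.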

How the data were processed

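Polyadenylated RNA of SH-SY5Y cells was sequenced as 16 directional libraries, as the labels' protocols state. The authors deposited 1 table of raw read counts per gene, made with STAR and HTSeq on GRCh38.p13 (hg38), per the submitters' processing notes, which give no versions. The annotation release and strand setting are not given in the sources used here. Its 5 summary rows were left out of tests: reads assigned to no gene were 5.58% to 10.0% of uniquely placed reads, and ambiguous ones 4.73% to 5.34%.

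A reference list of names gave symbols for 62686 gene IDs. From the deposited counts, genes were filtered with edgeR's default over 8 groups and libraries scaled by the TMM method, on which CPM rests. A quasi-likelihood model (edgeR 4.0.16, R 4.3.3) with 1 mean per group over all 16 libraries left 8 residual degrees of freedom. Calls used a threshold of 0.05 on p-values adjusted by Benjamini-Hochberg over all 18081 genes. Standard errors are the log2 fold change over the root of F. The models were tested on simulated data. Depth limits low genes: floors of 3 counts cover counting error only, while the 95% intervals include the spread between libraries.

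The members and lists were chosen with earlier results of these data known. All 6 members are named. Some genes of the pathway lists are not reported here. From the other pathway lists the rule took, per comparison, up to 4 called rises and 4 called falls with the smallest p, of which some are described, and the 3 genes nearest in pattern to a member that spans 2 log2 units. Alternatives were relative log expression scaling, no filter, a replicate block, DESeq2 1.42.0, smaller fits and each library left out.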

Additional observations from a re-analysis of the deposited data

How the results depend on the processing

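Over 23 alternatives, 891 recomputed values of the 5 tested members gave 864 that kept their direction and side of the threshold, 10 calls lost, 17 gained and 0 reversed. NTRK2 kept both of its calls in all of them. Members called against differentiated plates without a low-count filter were 2 on unstimulated P(rGO), 1 on ITO and 2 on PEDOT:PSS, and 1 on each stimulated film, where the reported values were 0, 0, 1 and 0, 0, 0. Leaving out the untreated libraries gave 1 on unstimulated P(rGO), 1 on ITO and 1 on stimulated PEDOT:PSS. DESeq2 gave 1 on unstimulated ITO, 1 on stimulated PEDOT:PSS and 1 on stimulated ITO. Fitting only the groups compared gave 1 in place of 2 for differentiation on plates, 1 on unstimulated P(rGO) and 0 on PEDOT:PSS. With each library left out, members called ran from 1 to 3 for differentiation on plates, from 1 to 2 for films against untreated cells, and from 0 to 0 on unstimulated PEDOT:PSS. The cause was not tested for any of these.

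Over all genes, 838 were called for unstimulated P(rGO), 764 for ITO and 267 for PEDOT:PSS, against 102, 132 and 19 without plate replicate 1, 1463, 1211 and 664 with DESeq2 and 2209, 1756 and 986 without the untreated libraries. For differentiation on plates 5353 were called, 1802 without plate replicate 2 and 347 with the 4 plate libraries alone.

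With the replicate number as a replicate block, 1 member was called on stimulated PEDOT:PSS, NTRK3 (log2 fold change -1.85, edgeR adjusted p = 0.0403), and no other member's call changed. The main model did not take the numbers as pairs. Deviations of same-numbered libraries correlated across genes from -0.19 to 0.29 over 28 pairs of groups, 16 of them over 0.1. Among the 6 film groups alone, all 15 pairs correlated positively, from 0.07 to 0.29 with a median of 0.17, and 13 were over 0.1. Film libraries of the same number thus shared part of their deviation, which the main model left in its residual spread.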
